A study of Rattus norvegicus with 59 samples.

Results

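The hippocampus was compared with the other brain regions of the same rats. The 12 arrays titled hippocampus, out of 59 in all, were set against the arrays of frontal cortex, striatum, amygdala and nucleus accumbens that carried the same animal number, 47 arrays in total. The rats were adult males of 2 inbred lines selected for drinking, 6 of the alcohol-preferring line (iP, strain iP5C) and 6 of the alcohol-non-preferring line (iNP, strain iNP1), and both lines were pooled. All were habituated to handling and killed by decapitation, and each array held the total RNA of 1 region of 1 rat on an Affymetrix rat array, which reports a brightness (signal) for each probe set, a group of probes for 1 transcript. For each rat, the log2 signal of hippocampus minus the mean log2 signal of its other regions gave 1 value per probe set, called the difference here; for iP animal 6, which had no cortex array here, the mean was over 3 regions. A dissected region holds many cell types, so fewer cells of a type and less RNA per cell cannot be told apart in any value below. Each line is 1 inbred strain.

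The hippocampus is built of tightly packed layers of glutamatergic pyramidal and granule neurons with a smaller number of GABA interneurons, and its dentate gyrus keeps making granule neurons in the adult. It receives dense serotonin input, carries high levels of the mineralocorticoid receptor, and its fields differ in kainate receptors and in guidance receptors that order its fiber layers. It borders the lateral ventricle, where the choroid plexus, an epithelium that makes cerebrospinal fluid and secretes transthyretin, lies against it and can be carried along in dissection. Striatum and accumbens consist mostly of GABA-releasing medium spiny neurons, which the hippocampus lacks.

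All 12 hippocampus arrays correlated best, over all probe sets, with the other hippocampus arrays, and 0 of the other 47 arrays did so. The median signal per array ran from 308 to 357 in hippocampus and from 251 to 391 elsewhere. The 3′ to 5′ signal ratio of Gapdh, a measure of RNA integrity, lay between -0.10 and 0.24 (log2) in hippocampus. Elsewhere it reached 6.14, in cortex of iP animal 5. That array and amygdala of iP animal 1 stood apart from their regions. The amygdala array did so by its profile and not by its Gapdh ratio (-0.15). Its mean correlation was 0.945 with striatum arrays and 0.926 with the other amygdala arrays, and the reason was not tested. Without both arrays 111 probe sets were again called, 108 of which are shared with the 111 found with all arrays. In permutation tests of the 12 paired values, hippocampus did not differ detectably from the other regions in the Gapdh ratio (difference -0.18 ± 0.48 SD, p = 0.119), the beta-actin ratio (-0.14 ± 0.40, p = 0.281) or the median signal (-5.9 ± 21.2, p = 0.347); each of the 3 was 0.347 after Benjamini-Hochberg adjustment.

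Of 5244 probe sets tested, 111 (2.12%) were called, which means a limma adjusted p under 0.05 and a difference over 1 on the log2 scale. Of these, 30 (0.572%) were higher in hippocampus and 81 (1.54%) lower. At the adjusted p alone 524 probe sets (9.99%) were higher and 560 (10.7%) lower, so most differences were small. In 15 probe sets (0.286%) all 12 hippocampus arrays lay above all 47 others, and in 7 (0.133%) all lay below. The difference had the same sign in all 12 rats for 27 of the 30 called higher and 64 of the 81 called lower. With each gene represented by its brightest probe set, 18 of 3174 genes were called higher and 50 lower.

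**Figure D1:**
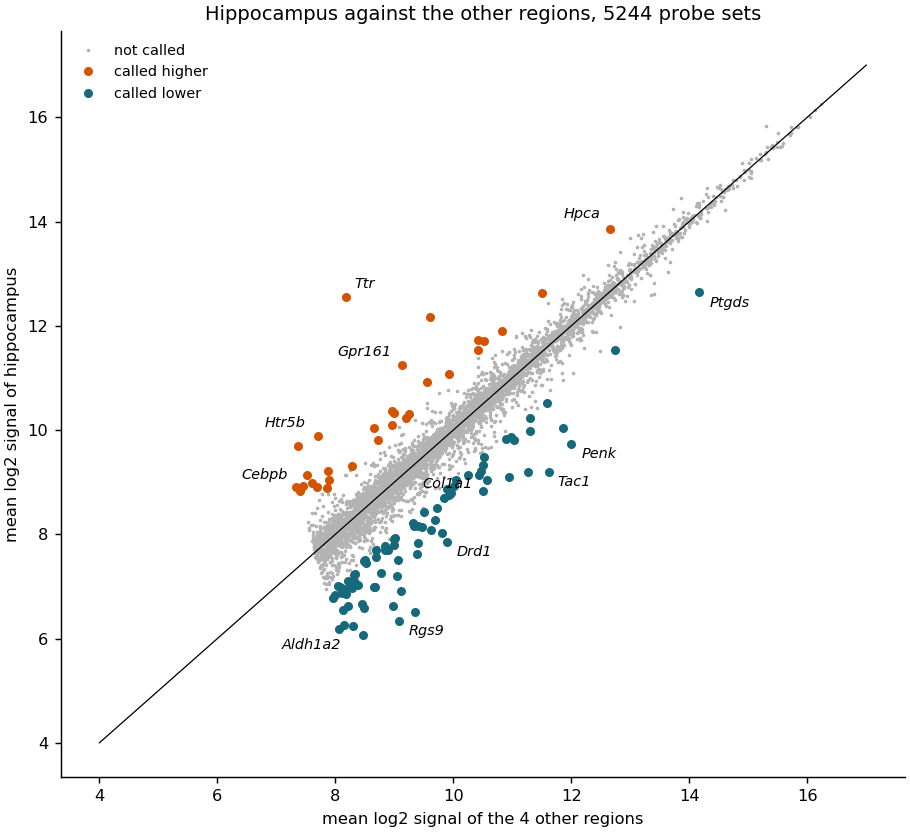
Mean log2 signal of hippocampus (vertical axis, 12 arrays) against the mean of the means of the 4 other regions (horizontal axis) for the 5244 probe sets tested, with the line of equal signal. The 30 probe sets called higher (orange) include Ttr, the one farthest above the line, and the 81 called lower (dark blue) include Rgs9, Tac1, Penk and Drd1 of medium spiny neurons.

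The 4 transcripts taken as markers of the hippocampus, the serotonin receptor Htr5b, the ciliary G protein-coupled receptor Gpr161, the transcription factor Cebpb and the guidance receptor Epha7, were each higher in 12 of 12 rats; Epha7 alone overlapped with other regions. Htr5b encodes a serotonin receptor of the brain. Its log2 signal was 9.68 at the lowest, 9.96 at the median and 10.07 at the highest in hippocampus, against 5.46, 7.83 and 8.89 in the other regions. No array of another region reached the lowest hippocampus array. The difference was 2.17 ± 0.12 (SE, n = 12 rats; limma adjusted p = 2.07e-08), and the SD between hippocampus arrays was 0.13. Against single regions it was 2.56 for cortex, 2.37 for striatum, 1.93 for amygdala and 1.87 for accumbens.

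Gpr161, a receptor of the primary cilium that holds down hedgehog signalling, ran from 10.79 through a median of 11.31 to 11.53 in hippocampus. Elsewhere it ran from 7.94 through 9.16 to 10.45, again with no overlap. The difference was 2.08 ± 0.09 (adjusted p = 9.03e-10). It was smallest against amygdala (1.43 ± 0.17) and largest against cortex (2.87 ± 0.11). Cebpb, a bZIP transcription factor that responds to cyclic AMP and to inflammation, ran from 8.42 through 9.00 to 9.33 in hippocampus and from 6.78 through 7.47 to 8.22 elsewhere. The groups did not overlap, and the difference was 1.48 ± 0.10 (adjusted p = 1.04e-07). Its differences from the 4 regions were close together: 1.67 for cortex, 1.45 for striatum, 1.40 for amygdala and 1.40 for accumbens. Epha7, a receptor for ephrins that guides axons and shapes synapses, differed in that its groups overlapped. It ran from 8.05 through 8.91 to 9.28 in hippocampus and from 5.88 through 7.60 to 8.41 elsewhere, with a difference of 1.42 ± 0.13 (adjusted p = 1.82e-06) that was positive in 12 of 12 rats. Striatum was its nearest region (1.00 ± 0.13) and amygdala its farthest (1.94 ± 0.22). The filter on dim probe sets used the mean signal over all arrays, hippocampus included. It left out a probe set with a mean of 7.62, while the medians of Cebpb and Epha7 elsewhere were 7.47 and 7.60. Both passed it through their hippocampus signal, so their adjusted p values are only descriptive here.

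**Figure D2:**
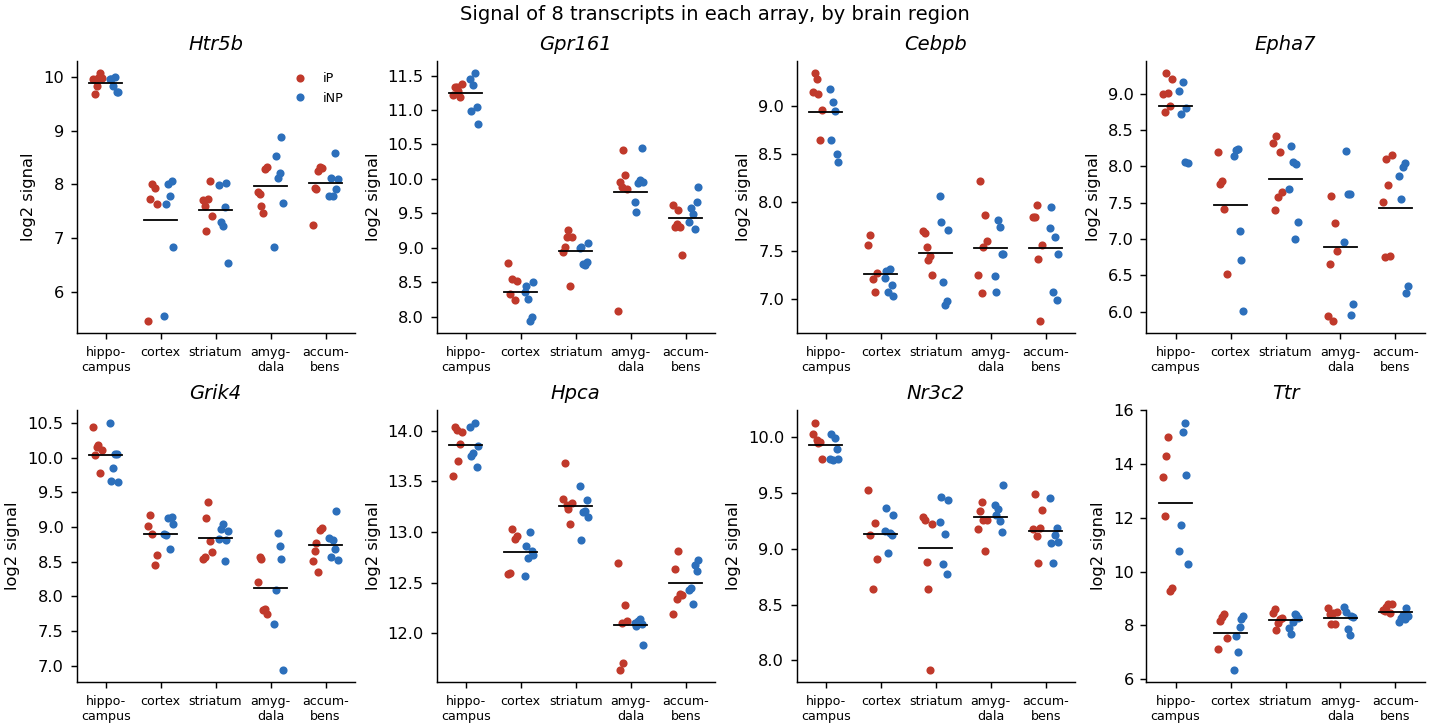
Log2 signal (vertical axes) of 8 transcripts in every array, by region, for iP rats (red) and iNP rats (blue), with black lines at the mean of each region. Htr5b, Gpr161, Cebpb, Grik4, Nr3c2 and Ttr lie above every other array in hippocampus, while Epha7 and Hpca overlap with other regions; the spread within hippocampus is widest for Ttr, from 9.28 to 15.55.

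Receptors for glutamate and their partners formed the next group. Grik4 encodes a kainate receptor subunit known from the mossy fiber synapses of the hippocampus. It ran from 9.65 through 10.05 to 10.51 in hippocampus and from 6.94 through 8.73 to 9.37 elsewhere, without overlap, and the difference was 1.40 ± 0.09 (adjusted p = 1.04e-07). Gria1, an AMPA receptor subunit of pyramidal neurons, had a difference of 1.11 ± 0.09 (adjusted p = 4.05e-07), of 1.53 against cortex and 0.81 against accumbens; averaged over its probe sets it was 0.85. Of the 13 ionotropic glutamate receptor genes tested, 3 were higher (Grin2c with 0.19 besides Grik4 and Gria1), 0 lower and 10 did not pass, with a list median of -0.01. Over all 3174 genes, 9.96% were higher and 11.5% lower at the same adjusted p, with a median of 0.00. Gria2 did not pass (0.28 ± 0.12, adjusted p = 0.133), nor did the kainate subunit Grik5 (-0.04 ± 0.06, adjusted p = 0.736). Among 8 metabotropic glutamate receptor and Homer scaffold genes, Homer3 rose (0.94 ± 0.10) and Grm2, a presynaptic receptor, rose by 0.42 ± 0.09. Homer1 fell by 0.46 ± 0.08; in all 3 were higher, 1 lower and 4 did not pass (median 0.06).

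Hpca encodes hippocalcin, a neuronal calcium sensor named for the hippocampus. It ran from 13.55 through 13.86 to 14.09 in hippocampus and from 11.64 through 12.67 to 13.68 elsewhere, so that the groups overlapped slightly. Its difference was 1.20 ± 0.05 (adjusted p = 2.09e-09), of 1.78 against amygdala and 0.60 against striatum. The diacylglycerol kinase gene Dgkg had differences of 1.32 ± 0.15 and 2.30 ± 0.18 from its brightest and a dimmer probe set. Nrp1, a co-receptor for semaphorins and vascular endothelial growth factor, was higher by 1.42 ± 0.11, with all 12 hippocampus arrays (9.62 to 11.03) above all others (at most 9.57). Wipf3, an actin regulator, rose by 1.15 ± 0.08, Fgfr1, a fibroblast growth factor receptor, by 1.15 ± 0.10 and the receptor tyrosine kinase gene Kit by 1.15 ± 0.09, each without overlap. Pou3f1, a POU-domain transcription factor, rose by 1.04 ± 0.11, by 1.75 against amygdala and 0.45 against striatum.

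Neurod1, the basic helix-loop-helix factor of dentate granule neuron formation, ran from 9.53 through 9.76 to 10.18 in hippocampus and from 7.68 through 8.56 to 9.97 elsewhere. The overlap was with amygdala. The difference was 1.09 ± 0.07 (adjusted p = 8.71e-08), of 1.45 against accumbens, 1.42 against striatum, 1.18 against cortex and 0.32 ± 0.11 against amygdala. Averaged over its probe sets it was 0.92. Of the 13 neurogenesis and progenitor genes tested, Neurod1 was the only one higher (7.69%, beside 9.96% of all 3174 genes). Lower were 4 (30.8%, beside 11.5%), among them Vim (-1.13 ± 0.11) and Id1 (-0.46 ± 0.08, and -0.21 averaged over its probe sets). The other 8 did not pass (median -0.08).

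Since transcription factors (Neurod1, Cebpb) and the corticosteroid receptor gene Nr3c2 were among the higher transcripts, the promoters of the genes called higher were searched for the motifs that such factors are known to bind. RefSeq promoters (GRCr8; 250 bases before to 50 after the gene start) were at hand for 13 of the 18 genes. Both strands were searched for the E-box CAGNTG of basic helix-loop-helix factors, the C/EBP motif TTGCNNAA and the corticosteroid receptor half-site AGAACA, and no matches overlapped in the sequences shown. A gene with several listed promoters was counted if any of them held the motif. The E-box was in 6 of the 13 (46.2%), namely Neurod1, Wipf3, Grik4, Dgkg, Nrp1 and 1 of the listed promoters of Gpr161, beside 51.8% of 27457 rat genes with promoters of this length. The C/EBP motif was in 0 of the 13 (11.4% of all genes) and the half-site in 0 (21.6%). Of the 39 genes called lower with a promoter, 24 held the E-box (61.5%), 5 the C/EBP motif (12.8%) and 6 the half-site (15.4%). The promoters of the serotonin receptor gene Htr5b and of 2 genes with a match are shown, 5′ to 3′ on the gene's strand, with the E-box in capitals; Htr5b (chr13:35252537-35252836, minus strand) has no match to any of the 3 motifs, Grik4 (chr8:52102014-52102313, minus strand) has 1 E-box and Neurod1 (chr3:84770405-84770704, minus strand) has 1.
Htr5b: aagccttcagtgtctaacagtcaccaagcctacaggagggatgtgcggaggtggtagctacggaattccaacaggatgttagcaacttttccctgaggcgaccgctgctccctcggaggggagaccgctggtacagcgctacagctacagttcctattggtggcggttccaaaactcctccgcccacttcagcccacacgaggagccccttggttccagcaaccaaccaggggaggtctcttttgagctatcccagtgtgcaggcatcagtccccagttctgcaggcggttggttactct
Grik4: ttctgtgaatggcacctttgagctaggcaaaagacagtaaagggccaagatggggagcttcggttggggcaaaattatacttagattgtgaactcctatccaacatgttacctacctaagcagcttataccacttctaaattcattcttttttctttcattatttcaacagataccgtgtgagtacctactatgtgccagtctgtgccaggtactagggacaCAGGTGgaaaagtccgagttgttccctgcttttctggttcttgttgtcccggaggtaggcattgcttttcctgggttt
Neurod1: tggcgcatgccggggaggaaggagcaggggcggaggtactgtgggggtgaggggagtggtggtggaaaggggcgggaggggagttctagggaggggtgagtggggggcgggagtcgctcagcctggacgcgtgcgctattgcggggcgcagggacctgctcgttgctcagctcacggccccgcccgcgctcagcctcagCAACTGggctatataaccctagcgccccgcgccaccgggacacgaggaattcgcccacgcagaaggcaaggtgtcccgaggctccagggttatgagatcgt

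Of the 19 tested members of a list of hippocampal neuron markers, 15 were higher, 2 lower and 2 did not pass, with a median of 0.78. The list holds the 4 markers above and was drawn up with earlier results of these data known. Besides those above, Bdnf, the brain-derived neurotrophic factor gene, rose by 0.69 ± 0.10, by 1.06 ± 0.13 against accumbens and 0.41 ± 0.16 against cortex, the last with an adjusted p of 0.114. Its other probe sets had 0.36 ± 0.09 and 0.00 ± 0.09 (adjusted p = 0.994), and averaged over its probe sets Bdnf was 0.35. Ntf3, the neurotrophin-3 gene, rose by 0.95 ± 0.08. The members that fell were Pcp4 (-0.97), a calmodulin-binding protein also made by striatal neurons, and Tyro3 (-0.40), a receptor tyrosine kinase. Fgf2 (0.19, adjusted p = 0.458) and Lct (0.09, adjusted p = 0.585) did not pass. In the wider list of 12 neurotrophin and fibroblast growth factor genes 5 were higher, 1 lower and 6 did not pass (median 0.12).

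Receptors for other transmitters and hormones were counted by family, beside 9.96% of all 3174 genes higher and 11.5% lower. The share higher was near this for serotonin receptors (11.1%) and for muscarinic and nicotinic receptors (14.3%). Of 9 serotonin receptor genes, Htr5b was the only one higher, 2 were lower and 6 did not pass (median -0.03). Htr2a, the receptor of cortical pyramidal neurons at which hallucinogens act, fell by 1.26 ± 0.17, with -1.69 against cortex, -1.31 against striatum and -1.50 against accumbens; against amygdala the value was -0.58 with an adjusted p of 0.0888. Of 9 GABA-A receptor subunit genes 3 were higher and 3 lower (median 0.01). Gabra5, the subunit of extrasynaptic receptors of pyramidal neurons, rose by 0.97 ± 0.08 and Gabrb1 by 0.70 ± 0.10. Gabra3 fell by 0.71 ± 0.12 (log2), and Gabrd, the subunit of tonic inhibition, had -0.55 ± 0.06. Of 7 muscarinic and nicotinic receptor genes, Chrm3 rose by 0.28 ± 0.05 and the other 6 did not pass (median -0.03). Averaged over its probe sets Chrm3 was 0.21 and did not pass (limma adjusted p = 0.0776). Of 4 Eph receptor and ephrin genes, Epha7 alone was higher and 3 did not pass (median 0.25), among them Efna1 (0.22 ± 0.08, adjusted p = 0.0784).

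Nr3c2, the mineralocorticoid receptor gene, was higher without overlap: 9.79 to 10.13 in hippocampus (median 9.95) and 7.92 to 9.57 elsewhere (median 9.18). Its difference was 0.78 ± 0.07 (adjusted p = 1.03e-06), and 1.55 ± 0.12 on its second, dimmer probe set, which is called. Nr3c1, the glucocorticoid receptor gene, had a difference of -0.01 ± 0.21 (adjusted p = 0.989), and its hippocampus arrays ran from 6.46 to 8.97. Sgk1, a kinase induced by corticosteroids, rose by 0.30 ± 0.05; of the 4 genes of corticosteroid response tested, 2 were higher and 2 did not pass (median 0.28).

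In the C/EBP family and its bZIP partners, 2 of 7 genes were higher (Cebpb, and Ddit3 by 0.34 ± 0.09), 1 lower (Dbp, a clock output factor, -0.28 ± 0.08) and 4 did not pass (median 0.15). Cebpd was not among those higher by its brightest probe set (0.15 ± 0.08, adjusted p = 0.221) but was called by a dimmer one (1.23 ± 0.15, adjusted p = 3.14e-05). Activity-induced early genes split. Of 15, 3 were higher (20%), 8 lower (53.3%) and 4 did not pass (median -0.30). Over all 3174 genes the shares were 9.96% higher and 11.5% lower. The nuclear receptor genes Nr4a3 (1.06 ± 0.15) and Nr4a2 (0.70 ± 0.09) rose, with Nr4a2 at -0.12 ± 0.09 against striatum (adjusted p = 0.365); Nr4a3 averaged over its probe sets was 0.65. The zinc finger genes Egr1 (-0.79 ± 0.07) and Egr2 (-1.07 ± 0.13) fell; without iNP animal 9, Egr2 was -0.98.

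Over all 3174 genes, 9.96% were higher and 11.5% lower at the same adjusted p. Genes of calcium and cyclic AMP signalling went both ways: of 31, 5 were higher (16.1%), 9 lower (29%) and 17 did not pass (median 0.01). Camkk1, an upstream kinase of the calmodulin-dependent kinases, rose by 0.85 ± 0.06, by 1.58 against accumbens and 0.14 ± 0.07 against cortex (adjusted p = 0.218). Its substrate kinase gene Camk4 was lower by the same test, at 4.57 to 8.13 in hippocampus (median 6.02) and 4.00 to 9.86 elsewhere (median 8.58), with a difference of -2.05 ± 0.37 (adjusted p = 0.000933; lower in 11 of 12 rats). Camk2d fell by 1.08 ± 0.10; it was -0.96 against the median of the other regions and -0.54 averaged over its probe sets. Adcy5, the adenylyl cyclase of medium spiny neurons, fell by 0.99 ± 0.07. Of 15 voltage-gated potassium channel genes 4 were higher (26.7%), 3 lower (20%) and 8 did not pass (median 0.09). The auxiliary subunits Kcnab1 and Kcnab2 rose by 0.65 ± 0.09 and 0.63 ± 0.05, and Kcnf1, a silent modulatory subunit, fell by 1.51 ± 0.17. Of 19 synaptic vesicle genes 3 were higher (15.8%), 3 lower (15.8%) and 13 did not pass (median -0.03), shares not far from those of all genes. The largest difference was that of Stx1a, a syntaxin of the release machinery, at -0.84 ± 0.11.

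Transcripts of medium spiny neurons were lower, and 2 of them, Rgs9 and Tac1, had the largest falls among genes by their brightest probe set. Of the 12 tested members of that list, 0 were higher, 11 lower and 1 did not pass (median -1.47). Rgs9, a striatal regulator of G protein signalling, was 5.76 to 7.79 in hippocampus (median 6.29) and 5.83 to 11.89 elsewhere (median 10.33), and its difference was -2.80 ± 0.16 (adjusted p = 2.26e-08). The groups overlapped, and the difference depended on the region: it was -4.91 against striatum and -4.47 against accumbens but -0.34 ± 0.29 against cortex (adjusted p = 0.516). Drd1, the dopamine D1 receptor gene, had values of -3.30 against striatum, -3.34 against accumbens and -0.06 ± 0.15 against cortex (adjusted p = 0.853).

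Tac1, the substance P precursor gene, was lower in hippocampus than in every other array: 8.53 to 9.56 in hippocampus (median 9.23) and 9.64 to 13.29 elsewhere (median 11.92), a difference of -2.45 ± 0.10 (adjusted p = 8.42e-10). Penk, the enkephalin precursor gene, fell by 2.30 ± 0.10. Gnal, the G protein subunit that couples D1 receptors to adenylyl cyclase, fell by 1.83 ± 0.22. That fall was against striatum (-2.99), accumbens (-3.15) and amygdala (-1.67); against cortex Gnal had 0.81 ± 0.32 (adjusted p = 0.118). Arpp21, a cyclic AMP-regulated phosphoprotein, fell by 1.84 ± 0.11 with no overlap, and its values against single regions ran from -1.22 ± 0.12 (cortex) to -2.41 ± 0.11 (striatum). Pdyn, the prodynorphin gene that striatal and dentate granule neurons both express, was the member that did not pass (0.03 ± 0.06, adjusted p = 0.784).

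A second set of falls did not follow the striatum. Pdp1, a mitochondrial pyruvate dehydrogenase phosphatase, was 8.12 to 9.63 in hippocampus (median 8.83) and 9.67 to 11.25 elsewhere (median 10.48), without overlap. Its difference was -1.67 ± 0.14 (adjusted p = 5.83e-07), and against single regions it ran from -1.25 (accumbens) to -2.05 (striatum). Kcnt1, a sodium-activated potassium channel, fell by 1.90 ± 0.26, with values from -1.54 (amygdala) to -2.11 (accumbens). Kcnf1 ran from -1.23 (amygdala) to -1.72 (accumbens), and Trim54, a tripartite motif protein, from -1.30 (accumbens) to -2.75 (amygdala).

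**Figure D3:**
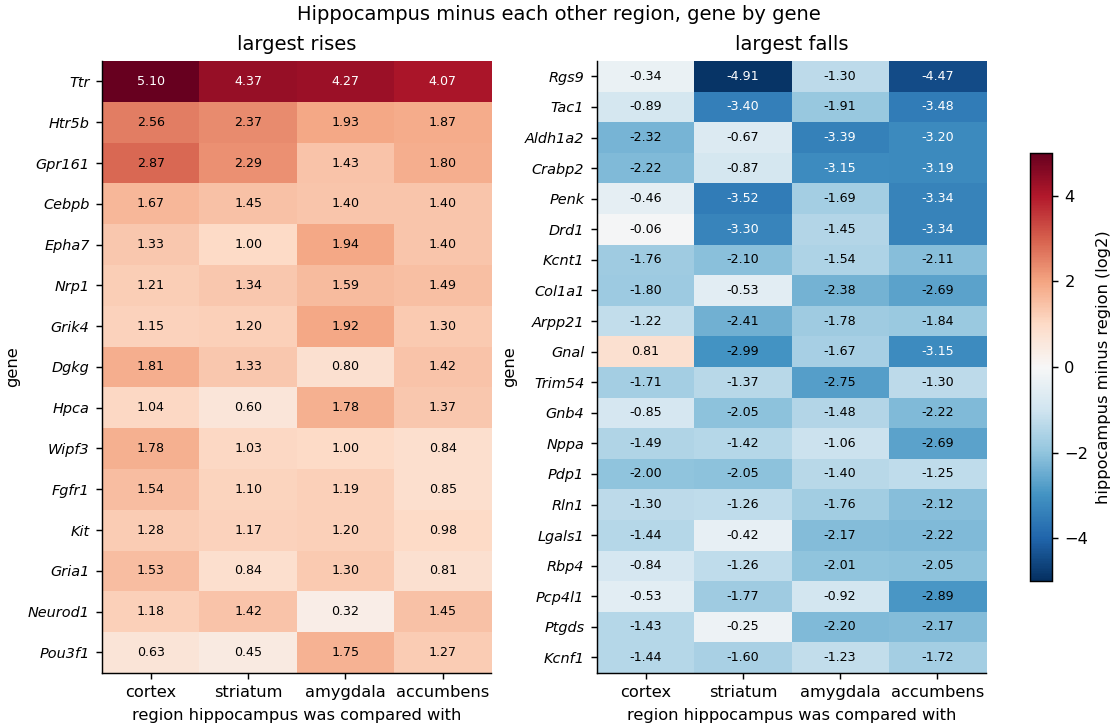
Hippocampus minus each other region (log2; colour and printed value) for the 15 genes named as largest rises and the 20 named as largest falls, with the region of comparison on the horizontal axis. Htr5b and Cebpb were higher by 1.40 or more against each region, Rgs9, Drd1 and Penk were lower mainly against striatum and accumbens, and Aldh1a2, Crabp2, Col1a1 and Ptgds were lower mainly against amygdala, accumbens and cortex. The 4 columns of a panel share the same hippocampus arrays.

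Most transcripts of a GABA interneuron list were lower (63.6%, beside 11.5% of all 3174 genes), by smaller amounts. Medium spiny neurons of striatum and accumbens also release GABA, so genes of GABA synthesis do not separate them from interneurons. Of 11 GABA interneuron genes 7 were lower, 0 higher and 4 did not pass (median -0.39): Gad1, a GABA-synthesizing enzyme, fell by 0.46 ± 0.04, and values were -0.60 ± 0.07 for the neuropeptide Y gene Npy, -0.57 ± 0.06 for Cck and -0.43 ± 0.07 for the somatostatin gene Sst. The parvalbumin gene Pvalb had 0.24 ± 0.09 (adjusted p = 0.0820) and, without the pair of arrays that stood apart, 0.29 (adjusted p = 0.0145). Of 16 neuropeptide genes 2 were higher (12.5%, beside 9.96% of all genes) and 5 did not pass (median -0.41). The other 9 were lower (56.2%), Tac1 and Penk among them. Of 2 cortical projection neuron genes tested, Nr4a2 was higher and Tle4 did not pass (0.06 ± 0.06).

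Meningeal transcripts made up another set of falls. Of 12 tested, 11 were lower, 0 higher and 1 did not pass (median -1.15). Aldh1a2, the enzyme that makes retinoic acid in the meninges, was 4.43 to 7.66 in hippocampus (median 6.06) and 4.73 to 10.15 elsewhere (median 8.84), with a difference of -2.41 ± 0.24 (adjusted p = 4.07e-06). Crabp2, a retinoic acid-binding protein, fell by 2.38 ± 0.29. The collagen gene Col1a1 fell by 1.85 ± 0.14 (-0.97 averaged over its probe sets) and Ptgds, the prostaglandin D synthase of meninges and choroid plexus, had -1.53 ± 0.14. Against striatum these differences did not pass: Aldh1a2 had -0.67 ± 0.36 (adjusted p = 0.216) and Ptgds -0.25 ± 0.20 (adjusted p = 0.408), beside -3.39 and -2.20 against amygdala. The summed signal of the list had a median of 11640 in hippocampus (8806 to 24760), 12670 in striatum, 31390 in cortex, 48020 in amygdala and 47040 in accumbens. The part of meningeal tissue in the other calls was not tested.

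Glial and blood transcripts moved less. Beside the counts below, 9.96% of all 3174 genes were higher and 11.5% lower. All 8 oligodendrocyte genes tested were higher (median 0.52), among them Mbp, a main protein of myelin, by 0.53 ± 0.08 and Mog, a myelin surface protein, by 0.54 ± 0.07. Mog was 1.31 ± 0.11 higher than in amygdala and 0.60 ± 0.10 higher than in cortex, with 0.10 ± 0.08 against striatum (adjusted p = 0.417) and 0.16 ± 0.08 against accumbens (adjusted p = 0.186). Of 11 astrocyte genes 0 passed in either direction (median 0.02), with Apoe at 0.12 ± 0.06. Of 8 microglial genes 5 were lower and 3 did not pass (median -0.26). The antigen-presentation gene Cd74 fell most (-1.61 ± 0.34), far from that median. Its values were -0.15 against striatum, -1.41 against cortex, -2.33 against amygdala and -2.58 against accumbens. Of 7 endothelial and mural genes 2 were lower and 5 did not pass (median -0.16), all 4 blood genes were lower (median -0.38), and the 1 ependymal gene tested, Dnah9, did not pass (0.26 ± 0.14).

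**Figure D4:**
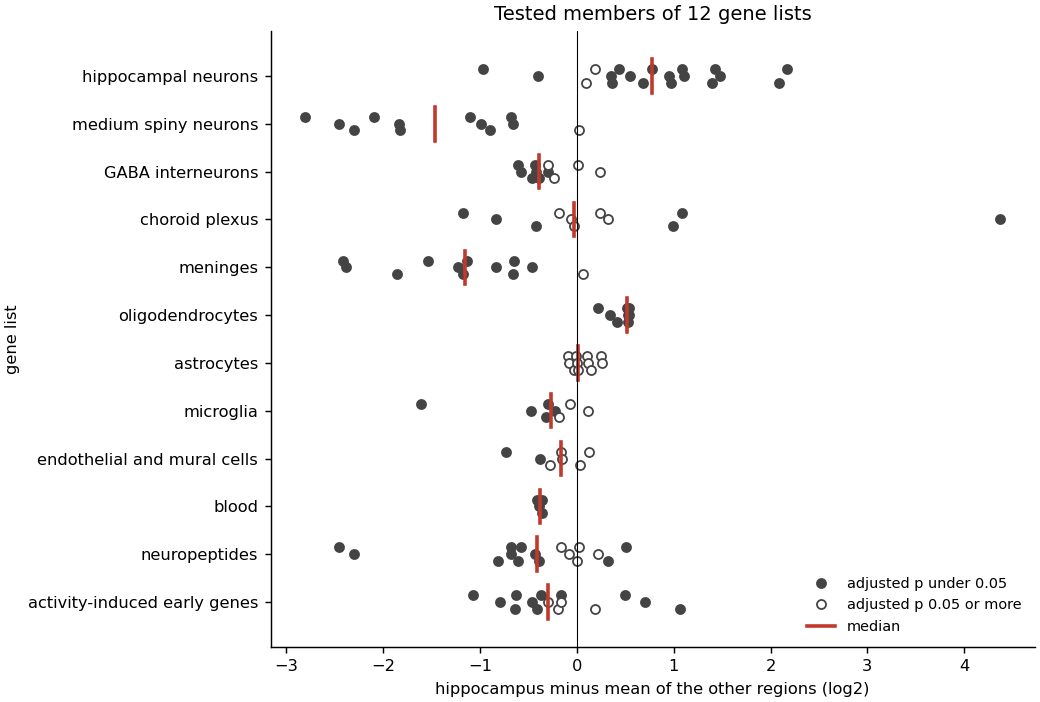
Difference of each tested gene (hippocampus minus the mean of the other regions, log2, horizontal axis) in 12 gene lists, with filled points at a limma adjusted p under 0.05, open points above it and red bars at the list median. The medians run from -1.47 for medium spiny neurons and -1.15 for meninges to 0.52 for oligodendrocytes and 0.78 for hippocampal neurons, and the choroid plexus list is centred near 0 (-0.03) with Ttr alone at 4.37.

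Choroid plexus transcripts are kept apart here. Ttr, the transthyretin gene, had the largest difference of all, 4.37 ± 0.58 (adjusted p = 5.73e-05). Its hippocampus arrays read 13.53, 12.06, 14.32, 15.01, 9.28 and 9.39 in iP animals 1 to 6 and 10.75, 11.73, 15.18, 15.55, 13.58 and 10.30 in iNP animals 7 to 12. The other 47 arrays lay between 6.35 and 8.81, so every hippocampus array was above them, but by very unequal amounts. Within a line, the SD of Ttr was 2.37 in hippocampus and between 0.16 and 0.69 in the other regions; the median probe set had an SD of 0.25 in hippocampus. A second probe set of Ttr, below the signal filter, ran from 9.64 to 15.19 in hippocampus and had a difference of 6.86 ± 0.56 with no filter.

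The rest of the choroid plexus list did not move as one. Of 11 members tested, 3 were higher, 3 lower and 5 did not pass (median -0.03); 19 of the 36 listed were on the array, 8 of them below the signal filter. Among those 8, with no filter, the potassium channel gene Kcnj13 had a median of 5.28 in hippocampus and 5.16 elsewhere. The water channel gene Aqp1 had 6.54 and 6.05. The lowest hippocampus array of each lay at the floor of 4.00. Enpp2, which encodes autotaxin and is also made by oligodendrocytes, rose by 1.09 ± 0.25 (adjusted p = 0.00527), running from 10.88 through 11.55 to 13.83 in hippocampus and from 9.89 to 11.53 elsewhere. Without iP animal 4, iNP animal 9 or iNP animal 10 its difference was 0.99, 0.98 or 0.89, under the size for a call. Sostdc1, a secreted antagonist of bone morphogenetic protein and Wnt signals, rose by 0.99 ± 0.29 (adjusted p = 0.0267). Without iP animal 3, iP animal 4 or iNP animal 9 its adjusted p was 0.0593, 0.0615 or 0.0627, and with no signal filter 0.0524. Igfbp2 (-1.17 ± 0.26), an insulin-like growth factor binding protein, Igf2 (-0.83 ± 0.18; -0.32 averaged over its probe sets), its ligand, and Bmp6 (-0.42 ± 0.07) fell; the first 2 are also in the meninges list. The summed signal of the list without Ttr was 6055 to 30040 in hippocampus (median 8173) and 6081 to 16100 elsewhere (median 9903).

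Across the 12 hippocampus arrays several of these transcripts followed Ttr. Enpp2 had a Pearson r of 0.901 (permutation p = 9e-05, adjusted 0.00075 over 10 genes) and a Spearman rho of 0.944 (permutation p = 1e-05, adjusted 0.0001; the smallest the permutations can give is 1e-05). Within lines, r was 0.973 in iP and 0.901 in iNP. Sostdc1 had r = 0.873 (permutation p = 0.00015, adjusted 0.00075) and rho = 0.881 (permutation p = 0.00035, adjusted 0.001), with 0.81 in iP and 0.963 in iNP. Igfbp2 and Igf2 also rose with Ttr, although both were lower in hippocampus than in cortex, amygdala and accumbens; against striatum they had 0.31 ± 0.32 (adjusted p = 0.545) and 0.42 ± 0.21 (adjusted p = 0.199). Igfbp2 had r = 0.837 (permutation p = 0.00084, adjusted 0.0021) and rho = 0.909 (permutation p = 0.0001, adjusted 0.0005), with 0.888 and 0.83 within lines. Igf2 had r = 0.828 (permutation p = 0.00033, adjusted 0.0011) and rho = 0.881 (permutation p = 0.0004, adjusted 0.001), with 0.901 and 0.828.

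Ace, the angiotensin-converting enzyme gene, and Slc4a2, an anion exchanger gene, passed by r (0.64 and 0.669; permutation p = 0.0223 and 0.0129, adjusted 0.0371 and 0.0258) but not by rho (0.65 and 0.58; permutation p = 0.0258 and 0.0521, adjusted 0.0517 and 0.0868). Htr2c, Prlr, Lepr and Bmp6 did not pass, with r from 0.134 to 0.476 (permutation adjusted p from 0.167 to 0.672). Without iP animals 5 and 6, whose Ttr was farthest from the median, r was 0.9 for Enpp2, 0.915 for Sostdc1, 0.796 for Igfbp2, 0.782 for Igf2, 0.692 for Ace and 0.604 for Slc4a2. The 4 markers, tested in the same way after the data had been seen, did not pass. Their r was -0.132 for Htr5b, 0.336 for Gpr161, 0.359 for Cebpb and 0.0281 for Epha7, with rho from -0.147 to 0.329 (permutation p of r from 0.25 to 0.927, adjusted 0.574 to 0.927 over 4 genes). Without iP animals 5 and 6, r was 0.311, 0.529, 0.315 and 0.239 in that order. Within lines it reached 0.573 for Gpr161 in iNP and 0.704 for Cebpb in iP, and was -0.33 for Htr5b in iP. With 12 arrays, a weaker relation to Ttr would not be detected. How much choroid plexus each dissection held was not measured other than by these transcripts, and its part in the other calls was not tested.

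**Figure D5:**
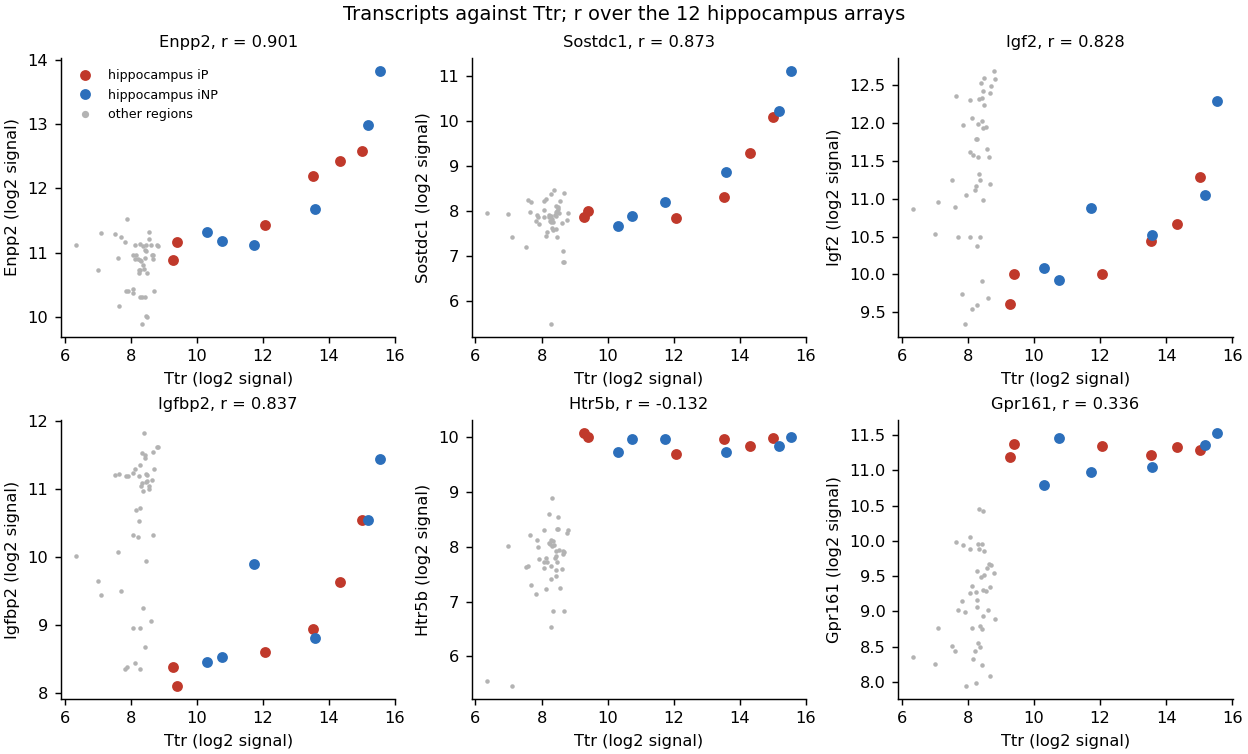
Log2 signal of 6 transcripts (vertical axes) against that of Ttr (horizontal axes) in each array, with hippocampus of iP rats in red, of iNP rats in blue and the other regions in grey. Enpp2, Sostdc1, Igf2 and Igfbp2 rise with Ttr among the 12 hippocampus arrays (r from 0.828 to 0.901), whereas Htr5b and Gpr161 stay between 9.68 and 10.07 and between 10.79 and 11.53.

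The hippocampal difference was also compared between the lines. By limma, 0 of 5244 probe sets passed for a line effect on the difference, and 267 (5.09%) had an unadjusted p under 0.05. The smallest adjusted p was 0.797, for the lysozyme gene Lyz2, whose difference was -0.68 ± 0.34 (SD, n = 6) in iP and 0.09 ± 0.18 (SD, n = 6) in iNP. For Ttr the line effect was -0.83 with an adjusted p of 0.899, and for Htr5b 0.02 with 0.984. Set against single regions, hippocampus had 47 probe sets called higher (0.896%) and 78 lower (1.49%) than cortex, 33 higher (0.629%) and 77 lower (1.47%) than striatum, 77 higher (1.47%) and 96 lower (1.83%) than amygdala, and 38 higher (0.725%) and 142 lower (2.71%) than accumbens. These 4 comparisons share the hippocampus arrays.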

How the data were processed

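Total RNA of 5 brain regions from 12 rats was measured on 59 arrays. The authors deposited 1 linear intensity per probe set and array. The mean without the lowest and highest 2% is 1000 on every array, so these were scaled before deposit, by a program not given in the sources used here. Titles gave region, line and animal, and the genotype label gave the line too. The source name puts every array in iNP, so it was left aside. Signals under 16 were set to 16 and log2 transformed. Of 8799 probe sets, 59 controls were left out, and then the 40% with the lowest mean log2 signal over all arrays, hippocampus included. A probe set dim elsewhere could thus pass through its hippocampus signal, among them those of Cebpb, Epha7 and the dimmer ones of Nr3c2 and Dgkg. For such probe sets the adjusted p is only descriptive. Among the non-control probe sets 7006 carried 1 gene symbol, 308 several and 1426 none, from the platform annotation, and 6985 matched the rat gene table by gene ID.

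One value per rat was fitted in limma 3.58.1 (R 4.3.3) with the line as a covariate, empirical Bayes moderation with an intensity trend and Benjamini-Hochberg adjustment; tests are two-sided. Titles number the animals, which pairs the regions of a rat. For gene lists, members were counted by adjusted p, with no minimum size. Counted in that way, 9.96% of all 3174 genes were higher and 11.5% lower, and each list count stands beside these shares. Differences are ± SE unless marked. Correlations used 100000 permutations and within-rat differences in RNA quality permuted signs (Python 3.11.15, scipy 1.17.1). The members, gene lists and rules were chosen with earlier results of these data known.

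Named genes are the 4 markers, up to 20 largest rises and falls among calls with the same sign in all rats, the tested choroid plexus members, and per list up to 4 that passed and 2 that did not. Other probe sets, Pcp4, Tyro3 and the genes given in the closing section were chosen after their values were seen. The fit was tested on simulated data (5 runs of 5244 probe sets) at an adjusted p under 0.05, with no minimum size. It recovered 80.7% of changes of 0.5, 99.7% of 1.5 and 100% of 2 (log2). Of the probe sets that passed, 5.21% were unchanged ones. These rates do not describe the calls, which also need a difference over 1. The simulated noise had the same spread in every region and the other regions did not differ from each other. The data are less simple, so the rates hold for that setting only. Precision is set by the number of rats, as arrays have no depth. Alternatives covered the floor, filter, scaling, replicate block, arrays and animals left out, the median of regions and the mean of probe sets.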

Additional observations from a re-analysis of the deposited data

Results flagged for a closer look

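Within each line, the 6 values of 45 named genes and 4 array measures were searched for a rat far from the other 5, in 98 searches; about 1 in 20 would be marked by chance, and 3 were. For Htr5b, the hippocampal difference of iP animal 1 was 2.88, and the nearest other iP rat had 2.17. For the diacylglycerol kinase gene Dgkg, iP animal 5 had 2.91 and the nearest other iP rat 1.55; the cortex array of that animal is the one with the high Gapdh ratio, and its part in the value was not tested. For Bmp6, iP animal 3 had -0.0739 and the nearest other iP rat -0.401.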

How the results depend on the processing

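Of the 111 calls, 111 remained with a floor of 1, 111 with a floor of 64, 108 after quantile normalization, 107 with equal array medians and 110 in a fit of all arrays with the animal as a replicate block (111 calls, 30 higher and 81 lower), which moved no count by over 1.5 times; 110 remained without that block. Leaving out each rat in turn gave 28 to 34 higher and 77 to 85 lower, 2 to 3 choroid plexus members higher, and 0 line effects. The signal filter also moved the counts. With no filter (8740 probe sets), 55 were higher than the mean of the other regions, 5 choroid plexus members were higher (Ttr, Enpp2, Calml4, Msx1 and Krt18, while Sostdc1 had an adjusted p of 0.0524), 79 were higher than cortex, 67 higher and 132 lower than striatum, and 65 higher and 232 lower than accumbens. With more dim probe sets dropped (3496 tested), 16 were higher and 38 lower than the mean of the other regions, 19 and 41 than cortex, 15 and 41 than striatum, 47 and 48 than amygdala and 22 and 66 than accumbens. At the adjusted p alone, with no minimum size, the counts moved most: 524 were higher and 560 lower. In hippocampus 5.29% of all values lay at the floor of 16, which limits the size of differences of dim transcripts in either direction. No named gene reversed under any of these settings: of 1081 recomputed values of called genes 1068 kept their call and 13 lost it, and of 160 recomputed correlations with Ttr 149 kept theirs. For named genes past the adjusted p but not called, 64 of 1315 recomputed values no longer passed. For named genes not past it, 22 of 1163 came to pass. The list counts rest on the adjusted p alone, so these changes bear on them. Without each rat in turn the RNA quality differences ran from -0.21 to -0.05 (Gapdh), -0.18 to -0.04 (beta-actin) and -9.47 to -3.06 (median signal).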

Other observations

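With no signal filter, 25 further dim probe sets were called higher in hippocampus, and several are known hippocampal transcripts; they are named after their values were seen. Klk8, which encodes neuropsin, a protease of hippocampal synapses, ran from 7.35 through 8.26 to 8.61 in hippocampus and from 4.00 through 4.31 to 6.60 elsewhere, a difference of 3.62 ± 0.15 (limma adjusted p = 1.19e-08). All 12 hippocampus arrays lay above all others. Its median elsewhere was close to the floor of 4.00, so the size of this difference depends on the floor. Htr1a, a serotonin autoreceptor and heteroreceptor gene dense in hippocampus, had a difference of 2.17 ± 0.14 (adjusted p = 4.23e-07), and Mas1, the receptor for an angiotensin fragment, of 1.17 ± 0.13 (adjusted p = 3.47e-05). The ephrin receptor gene Epha8 had 1.12 ± 0.17 (adjusted p = 0.000562). Dimmer second probe sets gave larger differences than the brightest one for Ntf3 (2.64 against 0.95), Kit (2.43 against 1.15), Grik4 (2.37 against 1.40) and Gabra5 (1.88 against 0.97). These were picked from called probe sets, so a large difference was a condition for naming them. Dimmer probe sets above the filter went both ways, with Neurod1 smaller (0.76 against 1.09) and Dgkg larger (2.30 against 1.32). Among dim falls, the dopamine D2 receptor gene Drd2 had -1.85 ± 0.14 and the retinoic acid receptor gene Rarb -1.45 ± 0.13.

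Of the choroid plexus members below the filter, Calml4 (1.75 ± 0.15) and Msx1 (1.16 ± 0.34) were called higher with no filter. Across the 12 hippocampus arrays r with Ttr was 0.744 for Calml4 (permutation p = 0.00425, adjusted 0.017 over 8 genes) and 0.798 for the water channel gene Aqp1 (permutation p = 0.00322, adjusted 0.017); rho was 0.692 (permutation p = 0.0155, adjusted 0.0621) and 0.841 (permutation p = 0.00108, adjusted 0.00864). Without iP animals 5 and 6, r was 0.543 and 0.837.

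Probe sets of 1 gene disagreed in some cases. Adra1d, an alpha-1 adrenergic receptor gene, was called by a dimmer probe set (1.68 ± 0.18) but not by its brightest (0.23 ± 0.12, limma adjusted p = 0.2). The dimmer one had -0.04 against cortex, 0.80 against striatum, 2.70 against amygdala and 3.04 against accumbens. The collagen gene Col3a1 had -2.20 ± 0.16 on a dimmer probe set and -0.65 ± 0.08 on its brightest. The myelin gene Mag had 1.15 ± 0.17 and 0.53 ± 0.10, and Fos -1.21 ± 0.23 and -0.37 ± 0.07. A probe set with no gene symbol in the annotation had the second largest rise among the 5244 tested, 2.56 ± 0.08, from 11.63 through 12.24 to 12.41 in hippocampus and at most 10.35 elsewhere.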
